A study of Mus musculus with 13 samples.

Results

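Transcripts of 8 enzymes of cholesterol synthesis (Hmgcs1, Mvd, Idi1, Fdps, Fdft1, Sqle, Lss and Cyp51) were followed across the cell types of the mouse small intestine. They are 8 of the 16204 genes in the files and were matched by symbol, and all 8 were present. The set was selected on measured values of these data, namely its levels by cell type and the difference between traced and non-traced Paneth cells at 8 weeks, with earlier results known, so both patterns are given here as descriptions without a test. Tests of the members were kept for other cell types, traced against non-traced and over time, which the difference in Paneth cells did not draw on.

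All mice carried an Lgr5-driven, tamoxifen-inducible Cre (Lgr5-CreERT2, C57Bl6/J) and a YFP reporter behind a stop cassette in the Rosa26 locus (Rosa26LSL-YFP), so that tamoxifen marks stem cells active for Lgr5 and their later offspring. Traced cells were taken 5 days after tamoxifen in 5 libraries without a gate. At 3 weeks, 1 library held traced CD24+ cells and 1 was labelled non-traced CD24+. At 8 weeks there were 3 libraries of traced CD24+ cells, 1 of traced cells without the gate and 2 of non-traced CD24+ cells. The CD24 gate selects cells by a surface protein, and the labels call the non-traced cells controls of the same strain. Labels do not say how many mice gave the libraries, so p-values measure the spread between libraries, which may be technical. RNA of single cells was measured by CEL-seq, which reads the 3' end of each transcript next to a cell barcode and a molecular barcode, so levels of different genes can be set side by side without correction for length.

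The libraries held 421675 to 1385266 transcripts, and 892 of 1248 barcodes had at least 3000 transcripts other than spike-in RNA and were kept. Clusters were made without the genes of the pathway lists and named from marker lists, which gave 244 proliferating-like, 139 tuft-like, 117 stem-like, 107 enteroendocrine-like, 90 goblet-like, 84 Paneth-like and 52 enterocyte-like cells. Defining markers stood where the names put them: Lyz1 was at 550 per 10000 transcripts in Paneth-like cells and at most 31.2 in any other class, and Dclk1 was at 23.3 in tuft-like cells and at most 0.247 elsewhere. Lgr5 set the stem-like class apart less clearly, at 1.82 against 1.26 in tuft-like cells. A cluster of 42 cells, 97.6% of them from 5-day traced replicate 4, and another of 17 cells stayed unnamed. The library labelled 3-week non-traced CD24+ carries in a combined table a set name that contains YFP and no CD24, so it enters no test. The 5-day libraries differed in sex from all later ones (the Y-linked Ddx3y at 0 later and at 0.197 to 0.424 per 10000 at 5 days), and although all libraries used the same 96 cell barcodes, 0 cell profiles were identical between libraries.

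Cells build cholesterol from acetyl-CoA. Hmgcs1 makes HMG-CoA on the way to mevalonate, Mvd and Idi1 make the isoprene units, and Fdps joins them to farnesyl diphosphate, from which sterols, prenyl groups and other isoprenoids branch. Fdft1 commits farnesyl diphosphate to squalene, Sqle and Lss turn squalene into lanosterol, and Cyp51 removes a methyl group from lanosterol. Transcription of the pathway is raised by SREBP-2 (Srebf2) when membrane sterol is low, and in the intestine the absorptive enterocyte also takes up dietary cholesterol through Npc1l1.

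In the GENCODE M21 annotation (GRCm38, the same assembly as mm10) the genes lie on 7 chromosomes: Hmgcs1 at chr13:119690379-119708260 (+), Idi1 at chr13:8885501-8892451 (+), Mvd at chr8:122433601-122443422 (−), Fdps at chr3:89093588-89101959 (−), Fdft1 at chr14:63145150-63179578 (−), Sqle at chr15:59315077-59331192 (+), Lss at chr10:76531588-76557138 (+) and Cyp51 at chr5:4081145-4104746 (−). Fdft1 overlaps Ctsb and Cyp51 overlaps Akap9 on the opposite strand, and strand use in the counting is not given in the sources used here. Whether reads of those pairs were told apart is therefore not known, and the values of Fdft1 and Cyp51 are uncertain to that extent. Fdps overlaps Gm43738 and Gm22935 on its own strand, neither of them among the genes counted.

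Promoters are shown for the first enzyme of the set and the enzyme that closes the sterol rings, because the members share a regulator. Each is the 250 bases before the RefSeq gene start (GRCm38.p6), read 5' to 3' on the gene's strand, Hmgcs1 at chr13:119690101-119690350 (+) and Lss at chr10:76531355-76531604 (+). Capitals mark matches to the sterol regulatory element TCACNCCAC, the CCAAT box CCAAT and the GC box GGGCGG, searched on both strands, so that ATTGG and CCGCCC are matches on the other strand.
Hmgcs1: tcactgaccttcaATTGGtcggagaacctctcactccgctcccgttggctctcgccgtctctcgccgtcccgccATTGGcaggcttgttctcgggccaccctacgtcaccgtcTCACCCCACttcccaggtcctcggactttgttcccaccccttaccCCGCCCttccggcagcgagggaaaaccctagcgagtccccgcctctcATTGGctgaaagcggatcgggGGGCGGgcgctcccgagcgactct
Lss: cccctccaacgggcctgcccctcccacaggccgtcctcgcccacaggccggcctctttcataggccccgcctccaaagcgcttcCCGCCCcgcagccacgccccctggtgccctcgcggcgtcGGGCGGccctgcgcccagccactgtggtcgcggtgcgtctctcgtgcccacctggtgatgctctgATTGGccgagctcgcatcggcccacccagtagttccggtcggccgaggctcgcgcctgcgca
A sterol regulatory element match occurred in the Hmgcs1 window, as TCACCCCAC beginning 137 bases before the start, and in none of the windows of Idi1, Cyp51, Mvd and Lss, while 1.05% of 32851 promoters of the same length held one. Windows were searched for these 5 members, and Fdps, Fdft1 and Sqle were not searched. CCAAT occurred in all 5 and in 33.8% of all promoters, and GGGCGG in all 5 and in 32.7%. The Hmgcs1 window had 64.8% GC and the Lss window 73.6%, against a median of 52.4% over all promoters. These are matches of letters, not sites.

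Goblet-like and tuft-like cells held the most member transcripts, Paneth-like and stem-like cells the fewest per total transcripts. Levels are given per 10000 transcripts of a class in a library, over libraries with at least 3 cells of the class. The summed level of the 8 genes was 9.91 ± 3.30 (SD, n = 7 libraries; lowest 3.76, median 10.19, highest 13.6) in tuft-like cells and 9.80 ± 1.76 (n = 9; 7.04, 9.58 and 12.4) in goblet-like cells, and these neighbours did not differ beyond their spread. Proliferating-like cells had 7.22 ± 1.31 (n = 11; 5.21, 7.05 and 10.5) and enterocyte-like cells 6.79 ± 2.77 (n = 6; 2.94, 6.78 and 10.7), again within their spread. Enteroendocrine-like cells followed at 4.85 ± 1.07 (n = 7; 3.56, 4.62 and 6.60), stem-like cells at 4.00 ± 1.26 (n = 10; 2.94, 3.53 and 6.95) and Paneth-like cells at 2.97 ± 1.89 (n = 9; 1.5, 2.11 and 7.46), and each of these lay within the spread of the next. The lowest tuft-like value came from 3 cells of the ungated 8-week traced library.

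**Figure D1:**
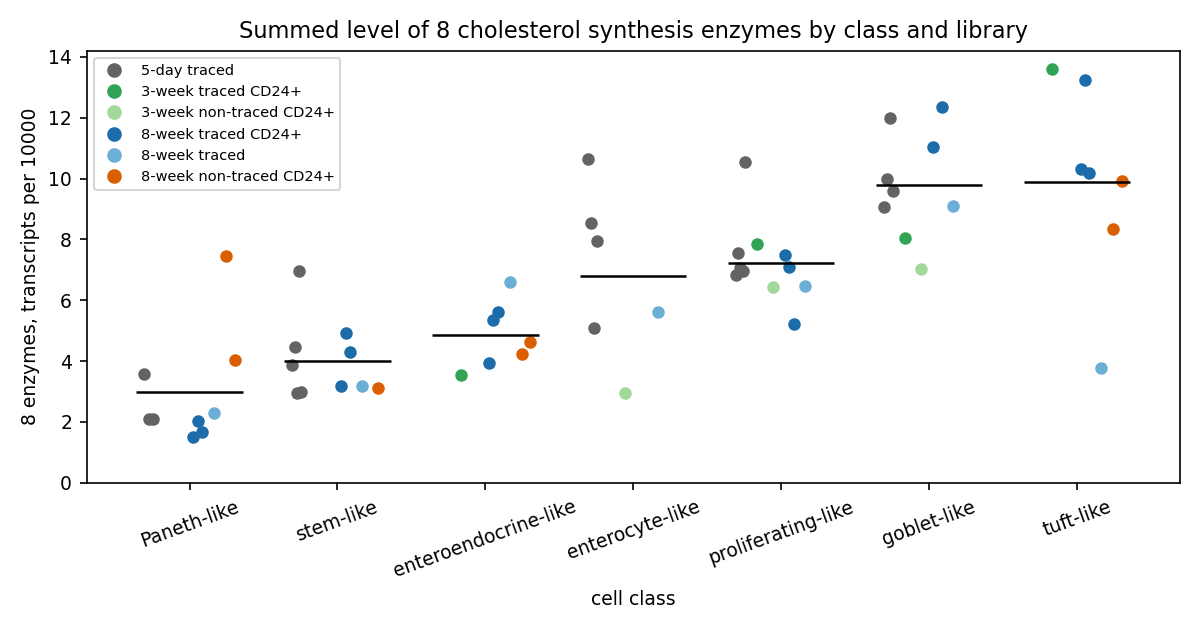
Summed level of the 8 genes (transcripts per 10000, y axis) by cell class (x axis); each point is 1 library with at least 3 cells of the class, coloured by group, and horizontal lines give the mean over libraries. Tuft-like and goblet-like cells averaged 9.91 and 9.80, Paneth-like cells 2.97.

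Within libraries, Paneth-like cells were the lowest class in 8 of the 9 that held enough of them, the exception being 8-week non-traced CD24+ replicate 1, where stem-like cells were lower. That rank turned with the total used. Paneth marker genes took 43.6% ± 5.72 (n = 9) of the Paneth-like transcripts. With them left out of the total, the summed level was 5.14 ± 2.94 per 10000 in Paneth-like, 4.87 ± 1.07 in enteroendocrine-like and 4.01 ± 1.26 in stem-like cells, and Paneth-like cells were the lowest class in 2 of 9 libraries. Other ranks are on the total with all genes. Paneth-like cells were above goblet-like cells in 0 of 6 libraries, above tuft-like cells in 0 of 6 and above proliferating-like cells in 0 of 7. Goblet-like cells stood above stem-like cells in 7 of 7 libraries and above proliferating-like cells in 8 of 9. Stem-like cells were above proliferating-like cells in 1 of 9. Higher classes changed places between libraries: goblet-like cells were above tuft-like cells in 3 of 4, enterocyte-like above proliferating-like cells in 2 of 6 and enteroendocrine-like above proliferating-like cells in 2 of 5.

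Hmgcs1, the first enzyme of the set, was the most abundant member over all kept cells at 1.61 per 10000. Its level was 2.57 ± 1.08 in tuft-like cells, 2.32 ± 0.566 in goblet-like cells and 1.75 ± 0.801 in proliferating-like cells, and 0.81 ± 0.838 in Paneth-like and 0.809 ± 0.392 in stem-like cells. In Paneth-like cells 1 library, 8-week non-traced CD24+ replicate 1, stood at 2.76 while the median library stood at 0.479. Mvd, the decarboxylase that yields isopentenyl diphosphate, was 0.615 ± 0.409 in goblet-like cells and 0.62 ± 0.514 in enterocyte-like cells, against 0.0441 ± 0.0667 in Paneth-like cells, where the median library had none. Idi1, its partner in making the isoprene units, was highest in goblet-like cells (1.21 ± 0.530) and proliferating-like cells (1.06 ± 0.477) and lowest in enteroendocrine-like cells (0.242 ± 0.284).

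Fdps, at the branch point of sterols and isoprenoids, was highest in goblet-like cells at 2.12 ± 0.678 and lowest in Paneth-like cells at 0.593 ± 0.434. Fdft1, the squalene synthase, was the member with the clearest lead in 1 class, with 2.37 ± 1.2 in tuft-like cells (median library 2.75) against 1.37 ± 0.275 in goblet-like cells and 0.507 ± 0.256 in Paneth-like cells. Its antisense neighbour Ctsb was at 3.87 in tuft-like cells and at 4.62 in enterocyte-like cells, where Fdft1 was at 0.83. Sqle, the epoxidase of squalene, was 0.733 ± 0.507 in tuft-like and 0.652 ± 0.197 in enteroendocrine-like cells, and 0.182 ± 0.173 in Paneth-like cells. Lss, the rarest member over all kept cells at 0.179, was 0.324 ± 0.242 in tuft-like and 0.318 ± 0.213 in goblet-like cells, and 0.058 ± 0.0548 in stem-like cells. Cyp51, which acts on lanosterol, was 1.26 ± 0.330 in goblet-like and 1.03 ± 0.410 in tuft-like cells, against 0.450 ± 0.278 in Paneth-like and 0.381 ± 0.295 in stem-like cells.

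As shares of the members' own transcripts the genes varied less than in level. Hmgcs1 made up 30.9% in Paneth-like cells and 20.5% to 26.2% in the other classes, but the Paneth-like share was 28% in 8-week traced CD24+ and 37.2% in 8-week non-traced CD24+ cells, and 16.7% in 5-day traced cells, where Fdps took 33.4%. Fdft1 took 24.8% in tuft-like cells and 19.9% in enteroendocrine-like cells, against 11.1% in enterocyte-like cells. Idi1 took 18.7% in stem-like and 16.4% in proliferating-like cells, against 7.83% in enteroendocrine-like cells, which in turn had the highest share of Sqle at 12.6%. Mvd took 2.03% in Paneth-like cells and 8.55% in enterocyte-like cells. These shares pool all cells of a class and cover 544 member transcripts in Paneth-like cells, 322 of them from the non-traced libraries.

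**Figure D2:**
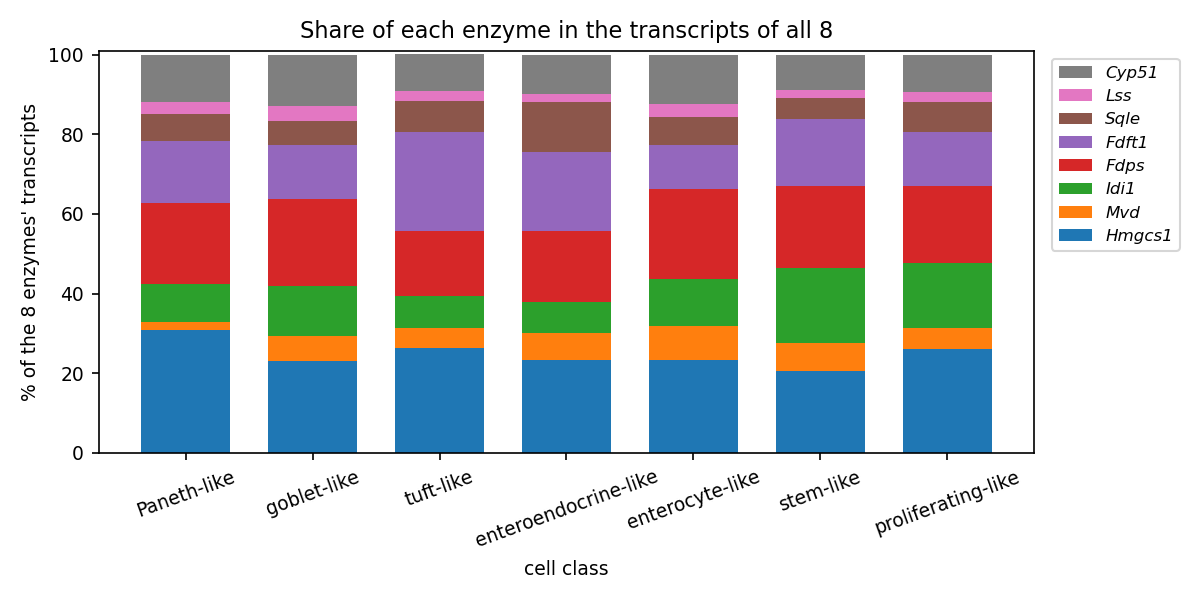
Share of the members' transcripts taken by each of the 8 genes (percent, y axis, stacked) in each cell class (x axis), pooled over all cells of the class. Fdft1 is widest in tuft-like cells at 24.8% and Idi1 in stem-like cells at 18.7%.

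Most cells of every class held some member transcript. Each cell was thinned to 3000 molecular barcodes, counted before the correction for molecules that share a barcode. At least 1 member barcode was left in 83.5% of tuft-like, 78.8% of enterocyte-like, 78.7% of goblet-like, 75.8% of proliferating-like and 75.5% of enteroendocrine-like cells. The share was 64.1% in stem-like and 61.7% in Paneth-like cells. Too shallow for this, and left out, were 3 of 84 Paneth-like, 1 of 90 goblet-like and 1 of 107 enteroendocrine-like cells. Unthinned, the shares were 87.2% to 94.2% and Paneth-like cells had 94%. A single thinned Paneth-like cell held 1.22 member transcripts on average, against 2.99 in tuft-like, 2.96 in goblet-like, 2.29 in enterocyte-like, 2.20 in proliferating-like, 1.34 in enteroendocrine-like and 1.10 in stem-like cells.

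Within Paneth-like cells of the 8-week CD24+ libraries, the members were lower in traced than in non-traced cells. The summed level was 1.5, 2.04 and 1.65 per 10000 in the 3 traced libraries (14, 7 and 13 cells), against 7.46 and 4.03 in the 2 non-traced libraries (15 and 11 cells). All traced libraries lay below both non-traced ones, with means of 1.73 ± 0.278 and 5.74 ± 2.43, a log2 ratio of -1.73 or 3.32-fold lower in traced cells. The combined table's names put replicate 1 of both groups in a first round and the others in a second, and the log2 ratio was -2.32 in the first round and -1.13 in the second. With cells of at least 5000 transcripts alone it was -0.97. Since this contrast chose the genes, the values describe these libraries and support nothing further.

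Hmgcs1 was at 0.392, 0.612 and 0.479 per 10000 in traced Paneth-like cells, against 2.76 and 1.53 in non-traced ones. Fdps was at 0.178, 0.305 and 0.305 in traced cells, against 1.31 and 0.804 in non-traced cells. Fdft1 was at 0.428, 0.305 and 0.304 in traced cells, against 0.948 and 0.626 in non-traced cells. None of these 3 genes overlapped between the groups, and in each of them non-traced replicate 1 was the highest library. Idi1 was at 0.214, 0.102 and 0.174 in traced cells and at 0.652 and 0.268 in non-traced cells, and Sqle at 0.107, 0.204 and 0.0869 in traced cells and at 0.520 and 0.312 in non-traced cells. Lss was at 0.0356, 0.102 and 0.0869 in traced cells and at 0.227 and 0.134 in non-traced cells. Again the groups did not overlap.

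Cyp51 and Mvd did overlap. Cyp51 was at 0.107, 0.407 and 0.130 in traced cells and at 0.847 and 0.357 in non-traced cells, traced replicate 2 lying above non-traced replicate 2. Mvd was at 0.0356, 0 and 0.0869 in traced cells and at 0.195 and 0 in non-traced cells, where a count of 0 allows a level of up to 0.305 in traced replicate 2 and 0.133 in non-traced replicate 2. In all, 6 of the 8 members were lower in traced cells without overlap of the groups, and among the 2764 genes abundant enough for a test 22.1% were. Hmgcs1, Fdps and Fdft1 were the members abundant enough, each without overlap. That filter asks for counts in only some of the libraries, and Fdps and Fdft1 met it in the non-traced libraries, where they were higher. These values also chose the genes, so setting them beside the share over all genes tests nothing. Idi1, Sqle and Lss were not among those genes, so the share over all genes does not cover them. Lss rested on 1, 1 and 2 transcripts in the traced libraries and Sqle on 3, 2 and 2.

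**Figure D3:**
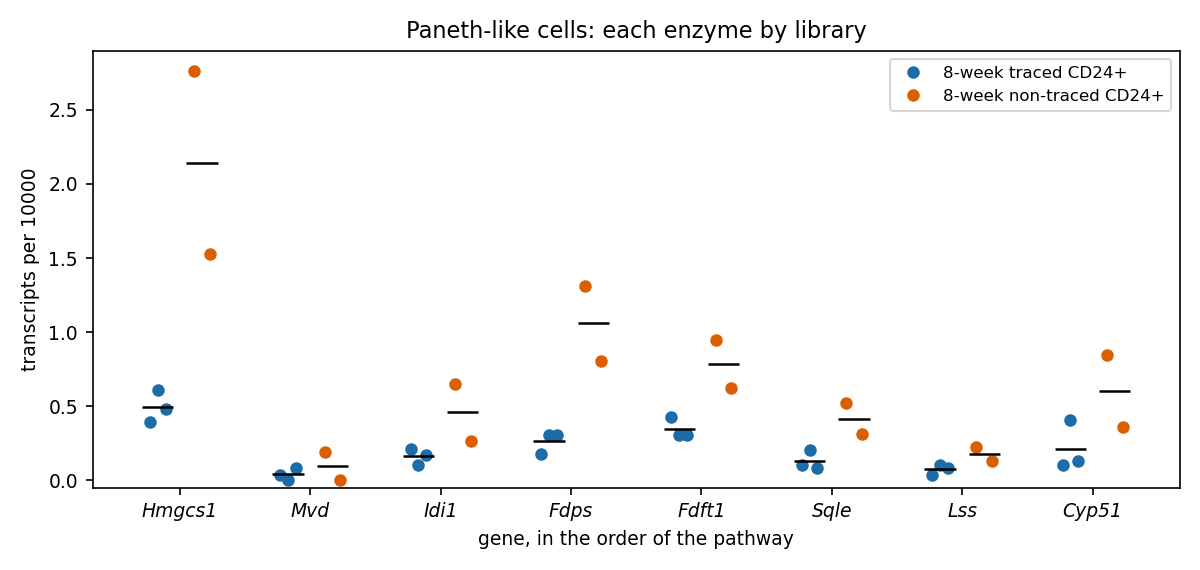
Level of each of the 8 genes (transcripts per 10000, y axis) in Paneth-like cells of the 8-week CD24+ libraries, traced left of non-traced; each point is 1 library and lines give the mean. Hmgcs1 lay at 0.392 to 0.612 in traced and at 1.53 and 2.76 in non-traced libraries, and Cyp51 and Mvd overlapped.

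Other contents of these cells differed between the groups as well, some higher and some lower in traced cells. Paneth marker genes together stood at 4124 to 5420 per 10000 in traced and at 3593 to 3973 in non-traced Paneth-like cells, and with them left out of the total the summed members were 3.27, 3.47 and 3.31 in traced cells, against 12.4 and 6.28 in non-traced cells. Goblet markers summed to 253 to 415 per 10000 in traced and 457 to 513 in non-traced Paneth-like cells, with 14 and 13 of the 14 detected, and their part in the difference was not tested. Tuft markers summed to 0.463 to 0.916 in traced and 1.23 to 1.34 in non-traced cells (7 and 9 of 12 detected), and enteroendocrine markers to 3.25 to 5.59 and 5.08 to 8.27 (15 of 19 in each). Leukocyte markers, of which 1 of 14 was detected in each group, stood at 0.306 to 0.654 in traced and 0.134 to 0.227 in non-traced cells. Stem markers summed to 6.19 to 10.1 in traced and 4.23 to 7.17 in non-traced cells (12 and 11 of 12 detected). Enterocyte markers summed to 2.92 to 4.19 and 1.52 to 3.71 (10 and 7 of 15), and proliferating markers to 6.98 to 14.2 and 8.22 to 11 (18 and 17 of 18).

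Finer clustering separated the cells in which the goblet markers were high. At resolution 2, 22 cells left the Paneth-like class for an unnamed cluster led by Spink4, Defa17, Guca2a, Mmp7, Tff3 and Muc2. They were 1 of 14, 3 of 7 and 3 of 13 cells of the traced libraries, against 7 of 15 and 7 of 11 cells of the non-traced ones, and 1 of 3 cells of the ungated 8-week traced library. Goblet markers stood at 761, 845 and 734 per 10000 in them in the traced libraries and at 810 and 687 in the non-traced ones. Their summed member level was 5.62, 3.73 and 1.72 in the traced libraries, against 12.6 and 5.93 in the non-traced libraries. In the Paneth-like cells that stayed, the summed level was 1.36, 1.11 and 1.64 in traced libraries, against 3.59 and 1.83 in non-traced libraries, a log2 ratio of -0.99. The groups still did not overlap, but the highest cell held 66.9% of the member transcripts of the cells that stayed in non-traced replicate 1. Among the cells that stayed, the groups were not compared without it. Of the 8 members only Hmgcs1 and Sqle were still lower in traced cells without overlap. The share of all genes without overlap was not counted for these cells, in which 1 member was abundant enough for a test. Sqle rested there on 2, 0 and 0 transcripts in the traced libraries, against 4 and 2 in the non-traced ones.

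In the non-traced libraries, the cells that left the class held most of the member transcripts of Paneth-like cells. Those cells held 167.5 of 231.3 transcripts in non-traced replicate 1 and 71.54 of 90.63 in non-traced replicate 2. In traced replicates 1, 2 and 3 they held 5.014 of 42.15, 13.04 of 20.06 and 8.016 of 38.14. The median Paneth-like cell that stayed in the class held 1.33 member transcripts per 10000 in traced (27 cells; 0 to 3.72) and 1.61 in non-traced libraries (12 cells; 0.611 to 11.8). Among the cells that left it, the medians were 2.11 (7 cells; 1.28 to 5.62) in traced and 5.17 (14 cells; 4.08 to 29.8) in non-traced libraries. The highest cell of non-traced replicate 1 held 42% of that library's member transcripts in Paneth-like cells, and the highest of non-traced replicate 2 held 26.8%. Paneth marker genes took 5.19% of the transcripts of the highest cell of non-traced replicate 1. Their median share was 23% in traced and 23.1% in non-traced cells that left the class, against 58.1% and 59.2% in those that stayed. Of the 10 Paneth-like cells with the highest member level, 9 left the class and 8 were non-traced. With the highest cell of each library left out, the summed level was 1.4, 1.52 and 1.5 in traced libraries, against 4.84 and 3.47 in non-traced libraries. Thinned to 3000 molecular barcodes, 57.6% of 33 traced and 65.4% of 26 non-traced Paneth-like cells held a member barcode. The mean was 0.788 and 1.96 member barcodes per cell.

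**Figure D4:**
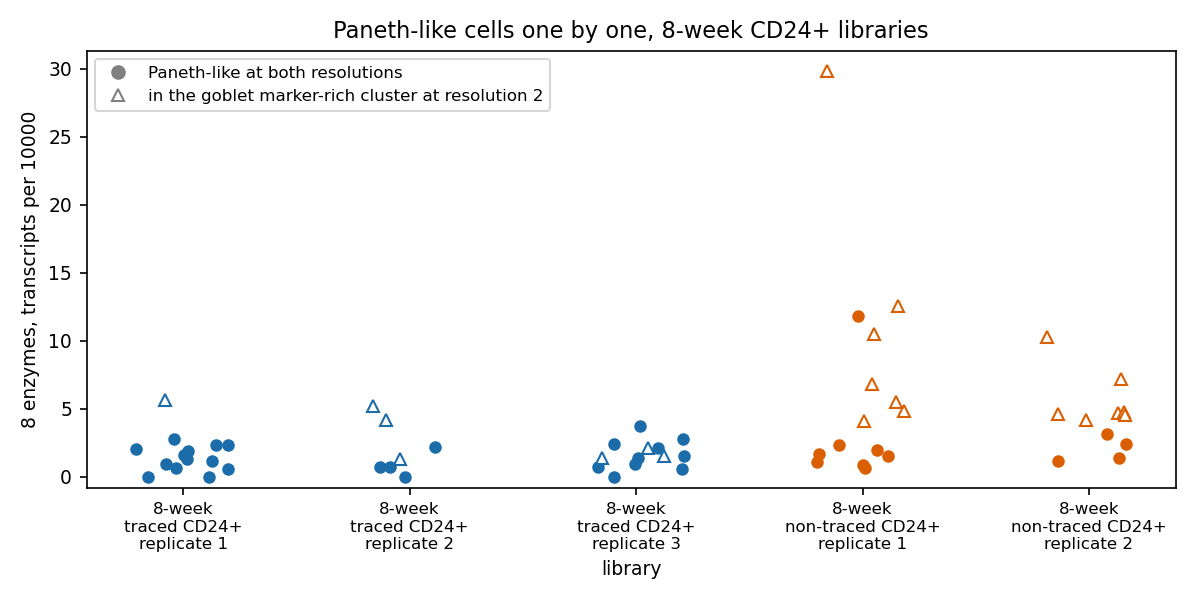
Member transcripts per 10000 in each Paneth-like cell (y axis) of the 8-week CD24+ libraries (x axis, traced libraries left of non-traced ones), with the cells that left the class at resolution 2 marked. Those cells reached 5.62 in traced and 29.8 in non-traced libraries.

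Among other cells of the same libraries, the members did not pass the test of traced against non-traced. In tuft-like cells the summed level was 10.3, 13.2 and 10.2 per 10000 in traced libraries, against 8.33 and 9.91 in non-traced libraries. Every traced library lay above both non-traced ones, by a log2 ratio of 0.30, where Paneth-like cells had -1.73, and the difference between the classes was not tested. The ratio was 0.31 in the first round and 0.24 in the second. Fdft1 was at 2.80, 2.75 and 3.44 per 10000 in traced tuft-like cells, against 2.15 and 1.94 in non-traced ones. Its log2 fold change was 0.49 (SE 0.26), with an adjusted p of 0.998 by edgeR's quasi-likelihood test, and Fdps had 0.41 (SE 0.29). Neither overlapped between the groups, and neither did 17.8% of the 3138 genes tested. Of the 8 members, 6 passed the filter and 0 were called, 0 had an unadjusted p under 0.05 and DESeq2 called 0, in a comparison in which 0.0319% of all genes were called.

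Enteroendocrine-like cells had summed levels of 3.92, 5.36 and 5.62 in traced libraries, against 4.25 and 4.63 in non-traced libraries, and the groups overlapped. Clusters 8, 13 and 15 held 16, 22 and 17 of these cells in the traced and 23, 4 and 4 in the non-traced libraries. Hmgcs1, Fdps and Fdft1 passed the filter, with log2 fold changes of 0.32 (SE 0.35), 0.23 (SE 0.49) and -0.44 (SE 0.41). In this class 0 of the 3 were called by edgeR, 0 at an unadjusted p under 0.05 and 0 by DESeq2, and 0.162% of 3088 genes were called.

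Over all cells outside the Paneth-like class, every member passed the filter. The summed level was 6.95 ± 0.588 (SD, n = 3) in traced and 7.05 ± 0.209 (n = 2) in non-traced cells, a log2 ratio of -0.02, -0.13 in the first round and 0.01 in the second. The largest fitted changes were those of Lss, 0.80 (SE 0.43, adjusted p = 0.327), Idi1, 0.40 (SE 0.21, adjusted p = 0.308), and Mvd, -0.38 (SE 0.26, adjusted p = 0.444), all by edgeR. Hmgcs1 had 0.005 (SE 0.19, adjusted p = 0.995). There 0 of the 8 were called, 0 had an unadjusted p under 0.05 and DESeq2 called 0, where 6.57% of 8234 genes were called. The mix of cell classes differed between the groups, with 43 tuft-like cells in the traced and 71 in the non-traced libraries. Whether the change in Paneth-like cells differs from that in other cells was not tested, since the first was used to choose the genes.

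**Figure D5:**
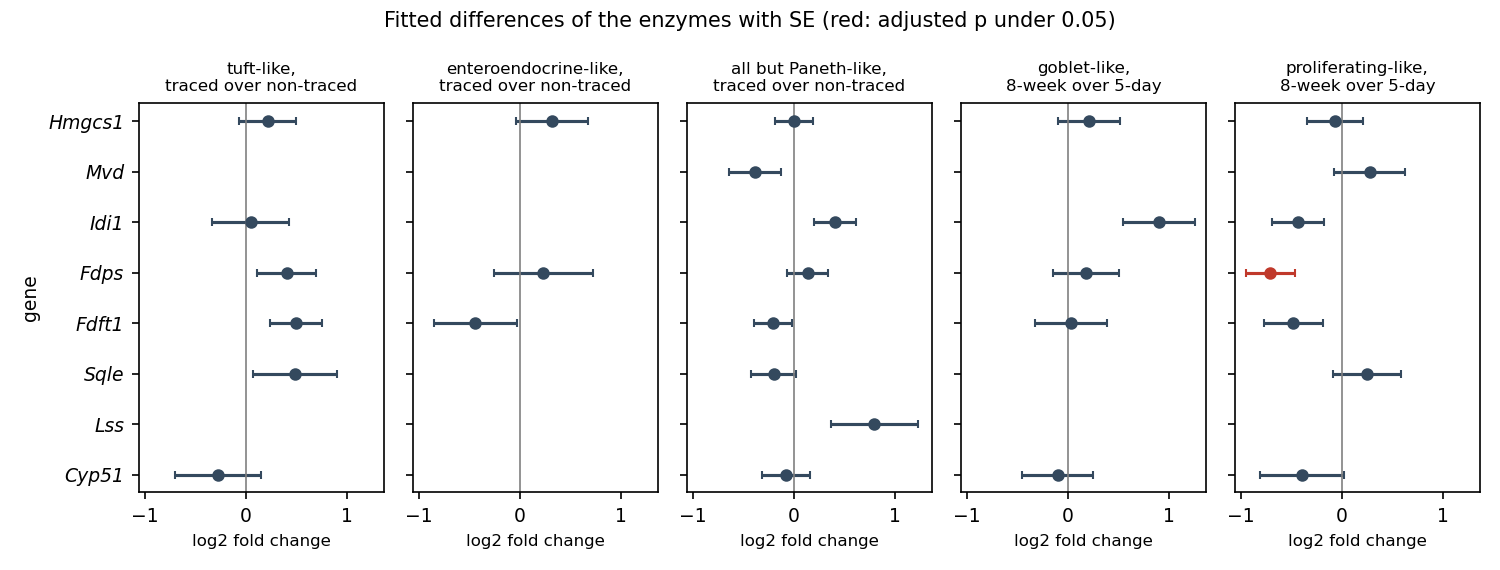
Log2 fold change of each member that could be tested (x axis, with standard error) in the comparisons that did not choose the genes, in 5 panels, 1 for each comparison in which at least 3 members were tested. Fdps in proliferating-like cells is the 1 member past the threshold, at -0.71.

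Between 8 weeks and 5 days, Fdps in proliferating-like cells was the 1 member past the threshold. This contrast compares 8-week traced CD24+ cells with 5-day traced cells that were not gated on CD24, and time, gate and sex cannot be told apart in it. In proliferating-like cells the summed level was 7.49, 7.09 and 5.21 per 10000 at 8 weeks, against 6.84, 7.56, 7.05, 6.95 and 10.5 at 5 days, a log2 ratio of -0.24 with overlap. Fdps was lower in the 8-week libraries, with 109.3 ± 25.1 CPM (n = 3) against 158.5 ± 32.7 CPM (n = 5) at 5 days (log2 fold change -0.71, SE 0.24, adjusted p = 0.0489, edgeR). Per 10000 transcripts it stood at 1.15, 0.817 and 1.30 in the 8-week libraries, against 1.60, 2.07, 1.33, 1.27 and 1.65 in the 5-day libraries, so that the groups overlapped. That call lay past the threshold in 7 of 17 alternative settings, with adjusted p between 0.0218 and 0.256. Of the 8 members 7 passed the filter and 1 was called by edgeR, DESeq2 called 0, and 15.3% of 5797 genes were called, 7.97% lower. In either direction, 1 of 7 is near the share over all genes. Different clusters held most proliferating-like cells of the 2 times: 28 of 30 cells at 8 weeks were in cluster 9, which held none of the 5-day proliferating-like cells.

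Goblet-like cells had summed levels of 11.04 and 12.4 at 8 weeks, against 9.07, 9.99, 12.01 and 9.58 at 5 days. Idi1 was at 2.04 and 1.81 per 10000 at 8 weeks, against 1.38, 0.766, 0.705 and 1.13 at 5 days, without overlap (log2 fold change 0.90, SE 0.36, adjusted p = 0.183, edgeR). It was the 1 member at an unadjusted p under 0.05 and without overlap, and 27.7% of the genes tested did not overlap. Of the 5 members that passed the filter 0 were called by edgeR and 0 by DESeq2, beside 3.09% of 2134 genes. In stem-like cells the summed level was 3.19, 4.93 and 4.31 at 8 weeks, against 3.86, 4.48, 2.94, 6.95 and 3.00 at 5 days. Fdps alone could be tested there (log2 fold change -0.12, SE 0.44, adjusted p = 0.903, edgeR), and 15.3% of 1904 genes were called. Different clusters held the stem-like cells of the 2 times, 35 of 36 cells in cluster 4 at 8 weeks and 49 of 50 in cluster 7 at 5 days.

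Paneth-like cells had summed levels of 1.5, 2.04 and 1.65 at 8 weeks, against 3.58, 2.10 and 2.11 at 5 days. The 8-week values are those of the traced libraries that went into the choice of the genes, so this comparison is a description too. The log2 ratio was -0.59. None of the members passed the filter in this comparison, in which 43.4% of 1162 genes were called. The cells came mostly from different clusters, 26 of 34 in cluster 5 at 8 weeks and 20 of 21 in cluster 14 at 5 days.

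The 3-week libraries and the ungated 8-week library had no replicate. In the 3-week traced CD24+ library the summed level was 13.6 in tuft-like cells, the highest of all libraries, with 3.43 for Hmgcs1, 3.66 for Fdps and 3.49 for Fdft1, and it was 8.03 in goblet-like cells. The library labelled 3-week non-traced CD24+ had 7.04 in goblet-like and 2.94 in enterocyte-like cells, the lowest of each class. In the ungated 8-week traced library stem-like cells had 3.19, proliferating-like cells 6.47 and Paneth-like cells, 3 in number, 2.28.

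The other 13 genes of cholesterol synthesis were similarly spread over the classes but not in the same order. Their summed level was 8.21 ± 0.803 per 10000 in proliferating-like, 7.88 ± 1.74 in goblet-like, 7.84 ± 1.62 in enterocyte-like and 7.37 ± 2.76 in tuft-like cells, and 2.92 ± 1.09 in Paneth-like cells. Lbr, a sterol reductase of the nuclear envelope that also tethers chromatin, was highest in proliferating-like cells at 2.10 ± 0.551. Ebp, a sterol isomerase, led in goblet-like cells at 1.39 ± 0.356.

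Transcripts of sterol uptake and export peaked elsewhere. Npc1l1, the transporter that takes up cholesterol, was at 6.30 in enterocyte-like cells and at most 0.925 in the other classes, and Abcg5 and Abcg8, which pump sterols out, were at 2.67 and 2.01 there. Soat1, which esterifies cholesterol, was highest in stem-like cells at 1.08. Npc2, a lysosomal sterol carrier, was at 1.48 to 2.80 in every class.

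Few of these genes passed a test. Between traced and non-traced Paneth-like cells edgeR called 44 of 2764 genes (1.59%), which came to 0 without traced replicate 3 and to 12 without traced replicate 1. There 3 of the 13 other cholesterol synthesis genes were abundant enough, and edgeR called 0 of them, with 1 at an unadjusted p under 0.05, and DESeq2 called 0. Fads1, a fatty acid desaturase, was higher in traced Paneth-like cells, with 57.3 ± 17 CPM (n = 3) against 18.6 ± 1.12 CPM (n = 2) in non-traced cells (log2 fold change 1.91, SE 0.53, adjusted p = 0.0438, edgeR). This call was past the threshold in 5 of 15 alternatives. Fads1 was also higher outside the Paneth-like class, at 158 ± 13 CPM in traced against 92.7 ± 8.48 CPM in non-traced cells (log2 fold change 0.81, SE 0.19, adjusted p = 0.0264, edgeR; past in 10 of 15 alternatives). The mix of classes moved with it: Fads1 was at 1.96 per 10000 in stem-like, 1.93 in proliferating-like and 0.325 in tuft-like cells, and the traced libraries held 36 stem-like and 30 proliferating-like cells, against 5 and 2 in the non-traced ones. The part of that mix was not tested. Fads1 was the 1 gene called among 3 fatty acid synthesis genes tested in Paneth-like cells and 9 tested outside them. Of 12 other cholesterol synthesis genes tested outside the Paneth-like class edgeR called 0, with 2 at an unadjusted p under 0.05. Of 4 in tuft-like cells it called 0 (0 unadjusted). DESeq2 called 0 in each. In proliferating-like cells at 8 weeks against 5 days, Pmvk, the kinase before Mvd, was lower by 1.34 on the log2 scale (SE 0.39, adjusted p = 0.0236, edgeR, past in 12 of 16 alternatives). It was 1 of 11 other cholesterol synthesis genes tested there, where 15.3% of all genes were called, and DESeq2 called 0 of the 11. Scd2, a desaturase of fatty acid synthesis, was lower by 1.06 (SE 0.30, adjusted p = 0.0184, edgeR, past in 12 of 17), 1 of 7 in its list.

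The members varied together across classes and libraries. Over 51 sums of a class in a library with at least 5 cells, Pearson's r of log2(CPM + 10) with the summed other members was 0.77 for Fdps and Hmgcs1, 0.76 for Cyp51, 0.70 for Fdft1, 0.65 for Sqle, 0.59 for Mvd, 0.55 for Lss and 0.48 for Idi1. The summed members had r = 0.86 with the summed other cholesterol synthesis genes, 0.65 with fatty acid synthesis genes, 0.38 with genes of sterol sensing and uptake and 0.12 with genes of efflux and esterification. Among single genes of these lists, Sc4mol (now Msmo1, a methyl sterol oxidase after Cyp51 in the pathway) had r = 0.80 and Scd2 0.74. Outside the lists the 10 genes most alike among 7025 were L1cam (r = 0.78), Lgals2, Grk6, Krt8, Capzb, Myl6, Kif1c, Tmem9b, Ms4a8a and Smdt1 (0.68). The points share libraries and the cell classes share depth and make-up, so these values are descriptions and carry no p. The members were also selected on their levels by cell type in these same data, with Paneth-like sums among the points. Their likeness to each other is therefore no separate support.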

How the data were processed

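Single-cell CEL-seq libraries (13, each with 96 cell barcodes) were analysed from the deposited tables. The values deposited by the authors are expected counts (transcripts of a gene in a cell, not scaled between cells). Undoing the collision correction for a pool of 256 molecular barcodes gave whole barcode numbers, within 0.001, for 100% of the unsaturated values. Saturation at 1597 affected 145 of 3145332 values above 0. BWA 0.6.2-r126 and mm10 are named per the submitters' processing notes; gene models and read filters are not given in the sources used here. Totals of 421675 to 1385266 transcripts per library limit the precision of rare genes, and floors of 3 counts for a count of 0 cover counting error only.

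A barcode was kept when it had 3000 or more transcripts, spike-in RNA not counted. Cells were clustered with scanpy 1.11.5 and leidenalg 0.10.2 in Python 3.11.15 (2000 variable genes, 30 principal components, 10 neighbours, resolution 1) without the pathway genes. A cluster was named when at least 3 markers were raised by 0.25 on a log2 scale and 1 stood among its 10 leading genes, and stayed unnamed with over 85% of cells from 1 library. No doublet detection was run. Counts were summed per class and library (at least 3 cells), rounded and tested with edgeR 4.0.16 in R 4.3.3 (quasi-likelihood F test after filterByExpr, with TMM factors and Benjamini-Hochberg adjustment over all genes tested, threshold 0.05); DESeq2 1.42.0, other filters, cell minimums, resolutions and left-out libraries were alternatives. CPM is a gene's count in 1000000 counts of a sum. The test was checked on simulated data. Replicate numbers were not taken to pair libraries, and a replicate or batch block was used only in alternatives.

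The members and lists were chosen with earlier results of these data known. Genes named are the 8 members, genes of the other pathway lists that passed a test, up to 6 of the most abundant of each list, and the 10 genes most like the members. Marker genes and the leading genes of 1 cluster are named as well. Some genes of the lists are not reported here.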

Additional observations from a re-analysis of the deposited data

Results flagged for a closer look

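In groups of 4 to 10 libraries, the gap between the highest or lowest library and its nearest neighbour was compared with the whole range of the group (Dixon's 95% critical value). Of 45 sets of member values 7 were marked in this way, and chance marks about 1 in 20 sets. All 7 came from the 5-day traced libraries, the only group with at least 4.

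Replicate 5 stood apart in proliferating-like cells, from 30 cells. Its summed level of the 8 enzymes was 10.5 per 10000, where the other 4 libraries had 6.84 to 7.56. Hmgcs1 was at 3.13 there (others 1.61 to 1.95) and Cyp51 at 1.54 (others 0.442 to 0.661), from 111 and 54.5 transcripts. In the same class Lss was at 0.284 in replicate 3 (others 0.124 to 0.165), from 9.03 transcripts.

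The other marks rest on few transcripts. In stem-like cells of replicate 4, 4 cells, Fdps was at 2.56 (others 0.429 to 0.870) and Sqle at 1.09 (others 0 to 0.248), from 7.04 and 3.01 transcripts. In enterocyte-like cells of replicate 3, Fdps was at 0.349 where the other 3 libraries had 1.93 to 2.21, and this low value rests on 2 transcripts in 7 cells.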

How the results depend on the processing

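Alternatives were run for the counts of called genes, the log2 ratios of the summed members and the summed levels by class. A count was taken as kept within 1.5-fold of the main one, and a ratio or level within the SD between libraries. A ratio was taken as reversed only where its sign turned and the main ratio exceeded that SD. By these rules 225 were kept, 54 moved and 3 reversed. Ratios near 0 could therefore change sign and still count as kept, as outside the Paneth-like class (-0.08 to 0.04 with a library left out). Of the alternatives for the single genes named, 46 kept the call and 34 lost it. The reversals concern goblet-like cells at 8 weeks against 5 days (log2 ratio 0.20), which came to -0.52 at resolution 2, -0.44 with marker-share classes and -0.35 as a mean over cells. The Paneth-like ratio of traced to non-traced (-1.73) was -0.97 in cells of 5000 or more transcripts and -0.99 at resolution 2 and likewise without the cells that left the class; left-out libraries gave -2.11 to -1.22. Outside the Paneth-like class the ratio was -0.16 as a mean over cells and -0.08 to 0.04 with a library left out. For Paneth-like cells at 8 weeks against 5 days it was -1.05 with at least 5000 transcripts and -0.72 to -0.28 with a library left out.

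The 44 genes called in Paneth-like cells, traced against non-traced, became 2 with DESeq2, 78 with a batch block, 9 with at least 5000 transcripts, 9 at resolution 2, 9 without the leaving cells and 2 in the larger cluster alone. With marker-share classes 0 were called (188 at an unadjusted p under 0.05). Left-out libraries gave 0 to 62, with 0 (239 unadjusted) without traced replicate 3 and 12 without traced replicate 1. In tuft-like cells the count of 1 became 0 with DESeq2 (49 unadjusted), 9 without a filter, 2 with sizes free of Paneth markers, 3 with a batch block, 3 and 2 with at least 1500 and 5000 transcripts, 6 with marker-share classes and 0 to 11 with a library left out, 11 without non-traced replicate 1. In enteroendocrine-like cells the count of 5 became 9 with DESeq2, 83 without a filter, 52 with a batch block, 9 with at least 5000 transcripts, 2 with marker-share classes and 4 to 26 with a library left out, 26 without non-traced replicate 2. Outside the Paneth-like class the 541 became 259 with DESeq2, 948 without a filter and 161 to 429 with a library left out, 161 without non-traced replicate 1.

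At 8 weeks against 5 days, the Paneth-like count of 504 became 299 with DESeq2 (398 to 576 with a library left out), the stem-like count of 292 became 458 with marker-share classes (206 to 290), the goblet-like count of 66 became 178 without a filter and 104 at resolution 2 (9 to 125, 9 without 8-week traced CD24+ replicate 3), and the proliferating-like count of 886 became 537 with DESeq2 and 452 with at least 5000 transcripts (526 to 880, 526 without 8-week traced CD24+ replicate 2). The causes of these changes were not tested. Replicate numbers gave residual correlations of 0.069 to 0.29 between equal numbers at 8 weeks, all above 0 but over 2 pairs, and -0.058 to 0.062 across times. They were therefore not taken to pair the libraries, although pairing at 8 weeks, where replicate 1 of both groups shares a round, cannot be told from 2 pairs. With a replicate block the counts were 0 in Paneth-like cells (234 unadjusted), 15 in tuft-like, 47 in enteroendocrine-like and, at 8 weeks against 5 days, 124 in goblet-like cells.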
